A study of Homo sapiens with 12 samples.

Results

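TRH, POU4F1, BAALC, ROBO1 and CAV1 are a group of 5 genes, of 20003 in the expression files, that are known as marker genes of acute myeloid leukemia with t(8;21). They were found in every file by their gene symbols. The group was chosen with results of these data in view, and TRH was chosen by its lower FPKM after OGP46 in Kasumi-1 cells, so TRH in that comparison and the levels of all 5 genes in one cell line against the other are described without a test. Of the 5 genes, 4 were above 0 in at least 1 sample and had at least 1 FPKM (fragments per length of exon, scaled to the mapped fragments of the library) in every Kasumi-1 sample. CAV1 was listed at 0 in all 12 samples, so these files show no CAV1 signal by which it could mark the Kasumi-1 cells.

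The mRNA-seq data came from 2 human acute myeloid leukemia cell lines. Kasumi-1 cells carry t(8;21), which makes the AML1-ETO (RUNX1-RUNX1T1) fusion, and NB4 cells are acute promyelocytic leukemia cells that carry PML-RARα. Cells of each line were incubated for 48 h with 1 μM OGP46, a diterpenoid derived from oridonin, or with the DMSO solvent alone as the control, with 3 samples in each of the 4 groups. The labels do not say whether the 3 samples of a group came from separate cultures, though a legend of the study speaks of independent experiments. Where they did not, a p-value measures only the spread between these samples, which may be technical.

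In t(8;21) leukemia the DNA-binding part of AML1 is joined to ETO, a protein that brings co-repressors, so that the fusion binds AML1 target genes and holds many of them down while others are raised. A set of genes with no major known role in normal myeloid cells is raised in blasts of this subtype, and TRH and POU4F1 are among the best known of them. The levels of these transcripts were measured here, not the fusion protein.

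The labels of the lines were checked against line markers. The summed level of RUNX1T1 (which gives the ETO part of the fusion), KIT (the stem cell factor receptor) and CD34 (a progenitor surface marker) was between 217.6 and 253.5 FPKM in the Kasumi-1 controls and between 209.7 and 242.9 FPKM with OGP46, against 0.155 to 2.61 FPKM in the NB4 controls and 0.231 to 0.479 FPKM in the NB4 samples with OGP46. None of the 3 was at 0 in a Kasumi-1 sample. Of 4 genes listed as markers of NB4 cells, STAB1 and LGALS12 were higher in the NB4 controls than in the Kasumi-1 controls, while HGF was 8.84 ± 2.01 against 13.5 ± 2.25 FPKM (SD, n = 3 each) and FGF13 was listed at 0 in all NB4 samples, so those markers go against the list. The files give no read counts, and the depth is unknown. The FPKM of a sample summed to between 248207 and 310262, and between 9339 and 9746 genes had at least 1 FPKM.

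TRH encodes prepro-thyrotropin-releasing hormone, the precursor from which the hypothalamic tripeptide hormone TRH is cut. The gene lies at chr3:129974720-129977935 on the plus strand (GRCh38.p14) and is 3216 bases long. The 250 bases before its start, at chr3:129974470-129974719 in RefSeq's GRCh38.p14 promoter table, are shown because TRH was the gene of the 5 whose level differed most with OGP46. Capitals mark TGACCTCA, a variant of the cAMP response element TGACGTCA, and TATAAG, a form of the promoter box bound by TBP.

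TRH promoter: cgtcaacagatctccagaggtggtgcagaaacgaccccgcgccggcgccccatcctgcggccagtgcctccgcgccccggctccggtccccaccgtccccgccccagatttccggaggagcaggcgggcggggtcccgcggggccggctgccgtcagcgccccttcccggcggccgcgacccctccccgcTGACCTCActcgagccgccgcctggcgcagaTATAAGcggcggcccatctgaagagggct

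Both strands were searched for the RUNX motif that AML1 binds, as TGTGGT or as TGCGGT, for the full cAMP response element and its variant, and for the TBP box (TATA box) in the form above, and no match overlapped another in the windows shown. In TRH the TGACCTCA lay at −60 to −53 and the TATAAG at −29 to −24, counted back from the base before the start. Over the same 250 bases of 35116 RefSeq promoters, the variant element was in 1.81%, the full element in 1.65%, the TATA box in 5.03% and a RUNX motif in 16.3%. The window held 32 CpG and 74.8% GC, against medians of 11 CpG and 58.0% GC. A match describes the letters of the window and does not show that a factor was bound.

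In the Kasumi-1 controls, TRH was at 34.8, 37.8 and 38.0 FPKM in samples 1, 2 and 3. With OGP46 it was at 20.96, 18.7 and 22.4 FPKM. All 3 samples with OGP46 lay below all 3 controls, and the gap between the groups was larger than the range within either. The means were 36.9 ± 1.76 and 20.7 ± 1.89 FPKM (SD, n = 3 each), so that the mean with OGP46 was 56.0% of the control mean. Taken by sample number, each OGP46 sample held 60.2%, 49.3% and 59.0% of its control. TRH ranked 1149th from the highest of 20003 genes in the controls and 2113th with OGP46.

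On the scale of log2(FPKM + 0.1), the difference for TRH was −0.83 (SE 0.08), the 35th lowest of the 11835 genes tested in Kasumi-1 cells. These values chose TRH and are given as a description. In that comparison 0.0169% of genes tested were called higher and 0.0169% lower, where a call needed a Benjamini-Hochberg adjusted p below 0.05 in limma and a shift of 0.58 or more on the log2 scale. Those calls depended on the model. No gene was called without the mean-variance trend, without the filter on low values or in a joint model of the 12 samples. With the sample number as a block, 32 genes were called higher and 41 lower. The samples with OGP46 all lay below all controls in 5.23% of genes tested and all above in 17.4%.

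**Figure D1:**
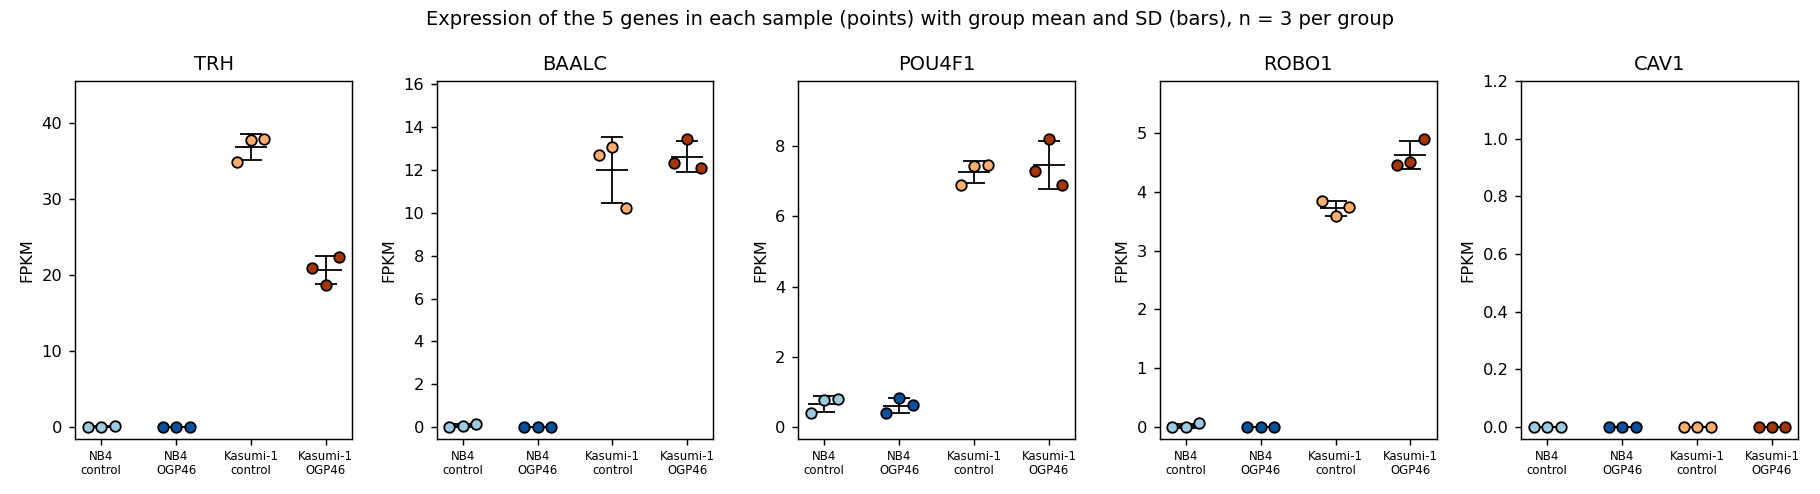
Level of each of the 5 genes in FPKM (vertical axis, linear, a scale of its own for each gene) in the 4 groups; points are samples 1 to 3 from left to right, and bars are the group mean and SD (n = 3). TRH lay in separate ranges in Kasumi-1 cells, 34.8 to 38.0 FPKM in controls and 18.7 to 22.4 FPKM with OGP46, while the groups of BAALC and POU4F1 overlapped and CAV1 was at 0 throughout.

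In NB4 cells TRH was listed at 0 in 5 of 6 samples. The exception was control sample 3, at 0.202 FPKM, which was 0.548% of the Kasumi-1 control mean. TRH was under the minimum mean of 0.1 FPKM and was not tested in NB4 cells.

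The genes that process or receive the hormone were taken from a list of 10. TRHR (its receptor) and PCSK1 and PCSK2 (prohormone convertases) were listed at 0 in all samples. CPE, the carboxypeptidase that trims the cut peptides, was at 0.601 ± 0.174 FPKM in the Kasumi-1 controls and listed at 0 in NB4 cells. PAM, which amidates the end of the peptide, was at 6.64 ± 0.253 FPKM in the Kasumi-1 controls and 8.09 ± 0.487 FPKM with OGP46 (SD, n = 3 each), with a log2 fold change of 0.28 and an adjusted p of 0.14 in limma. None of the 5 list genes tested in Kasumi-1 cells was called. Of these, 1, PAM, had an unadjusted p below 0.05, beside 15.6% of all genes. The list's medians were 0.02 here and 0.19 in NB4 cells, beside 0.05 and 0.18 over all genes. FURIN, a convertase of the general secretory pathway, was at 18.4 ± 1.51 FPKM in those controls. QPCT, which forms the cyclic glutamate at the start of the peptide, was the 1 list gene called in NB4 cells, where 1.45% of all genes were called higher. There it rose from 0.845 ± 0.089 to 2.06 ± 0.578 FPKM (log2 fold change 1.16, adjusted p 0.0383 in limma), and it was at 0.01 FPKM in the Kasumi-1 controls.

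POU4F1 (BRN3A) encodes a POU homeodomain transcription factor of sensory neurons. It lies at chr13:78598362-78603552 on the minus strand (GRCh38.p14), and exons of the antisense gene AL445209.1 overlap its own in GENCODE release 29. The kit was stranded but the strand setting of the counting is not given in the sources used here, so reads of opposite strands may not have been told apart. Its promoter window, at chr13:78603553-78603802, is shown beside that of TRH as the second classical marker; capitals mark TATAAG, at −217 to −212, far from the place of that box in TRH.

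POU4F1 promoter: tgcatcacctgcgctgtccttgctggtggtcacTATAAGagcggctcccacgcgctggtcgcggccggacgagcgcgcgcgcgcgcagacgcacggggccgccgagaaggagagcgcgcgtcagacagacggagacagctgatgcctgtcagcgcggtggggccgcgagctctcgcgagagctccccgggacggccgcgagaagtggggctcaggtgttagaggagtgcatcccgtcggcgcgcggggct

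The POU4F1 window held 37 CpG and 71.2% GC, above those of 96.7% and 82.8% of promoters, and TRH stood above 91.9% and 89.9%. Neither window held a RUNX motif or the full cAMP response element.

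The level of POU4F1 in Kasumi-1 cells overlapped between the groups. It was at 6.91, 7.44 and 7.46 FPKM in the controls and 7.30, 8.22 and 6.88 FPKM with OGP46. The OGP46 samples held the highest and the lowest value of the 6. The means were 7.27 ± 0.316 and 7.47 ± 0.68 FPKM (SD, n = 3 each), and the log2 fold change was 0.04 (95% interval −0.15 to 0.22, adjusted p 0.87 in limma). That interval leaves out a change as large as that of TRH in either direction.

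POU4F1 was the only one of the 5 genes with enough signal to be tested in NB4 cells. It was at 0.408, 0.78 and 0.788 FPKM in the NB4 controls and at 0.395, 0.819 and 0.624 FPKM with OGP46. Sample 1 was the lowest of both groups, and the groups overlapped. The log2 fold change was −0.09 (95% interval −0.78 to 0.60, adjusted p 0.854 in limma), so changes within that interval could not be told from none at this level. In NB4 cells 1.45% of genes tested were called higher and 0.111% lower, and 29.1% had an unadjusted p below 0.05. Those calls rested on the scaling and the model, with 0 genes called in NB4 cells after TPM scaling, median centring or quantile normalization, and 595 higher and 135 lower (5.06% and 1.15%) with the sample number as a block. Over all genes tested, the median log2 change was 0.18 in that line and 0.05 in Kasumi-1 cells.

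The change of POU4F1 in NB4 cells minus that in Kasumi-1 cells was −0.12 (SE 0.33, 95% interval −0.84 to 0.59, adjusted p 0.899, interaction term in limma). Over all 12309 genes 0% passed an adjusted p below 0.05 for that difference and 11% had an unadjusted p below 0.05. The difference between lines was given only for members whose mean reached 0.1 FPKM in both lines, which left out the other 4 genes.

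Of a list of 10 other POU and partner genes, POU3F2 and ISL1 were listed at 0 in all samples. POU2F1 (OCT1), a POU factor of most tissues, was at 3.59 ± 0.225 FPKM in the Kasumi-1 controls and 4.08 ± 0.609 FPKM with OGP46 (adjusted p 0.48 in limma). POU4F2 and POU4F3, the closest relatives of POU4F1, were at 0 and 0.0387 FPKM in the Kasumi-1 controls. None of the 3 list genes tested in each line was called by limma, and 0 had an unadjusted p below 0.05. The median was 0.17 for Kasumi-1 and 0.18 for NB4, beside 0.05 and 0.18 over all genes. POU2F2 (OCT2), a POU factor of B lymphocytes, was at 1.31 ± 0.908 FPKM in the NB4 controls and 2.76 ± 1.99 FPKM with OGP46 (adjusted p 0.44), and passed with the sample number as a block (log2 fold change 0.96, adjusted p 6.39e-04).

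BAALC, a cytoplasmic protein of immature hematopoietic and neural cells, was the second highest of the 5 genes in Kasumi-1 cells. Its gene lies at chr8:103140725-103230305 on the plus strand (GRCh38.p14), and exons of the antisense gene AC025370.1 overlap its own. It was at 12.7, 13.1 and 10.2 FPKM in the controls and 12.3, 13.5 and 12.1 FPKM with OGP46. Control sample 3 was the lowest of the 6 and the groups overlapped. The means were 12.0 ± 1.54 and 12.6 ± 0.73 FPKM (SD, n = 3 each), and the log2 fold change was 0.08 (95% interval −0.14 to 0.29, adjusted p 0.721 in limma).

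BAALC binds MAP3K1 and KLF4, and high BAALC, ERG and MN1 are known as markers of adverse risk in leukemia with normal chromosomes. In a list of 8 such genes none of the 5 tested in Kasumi-1 cells and none of the 6 tested in NB4 cells was called by limma. An unadjusted p below 0.05 was reached by 2 in each line, beside 15.6% and 29.1% of all genes. The medians were 0.02 and 0.23 beside 0.05 and 0.18 over all genes. ERG, an ETS factor of stem cells, was at 11.5 ± 0.244 FPKM in the Kasumi-1 controls and 10.7 ± 0.429 FPKM with OGP46 (adjusted p 0.464 in limma), against 0.117 FPKM in the NB4 controls. In the joint model of the 12 samples ERG was called lower in NB4 cells, at 0.117 and 0.0255 FPKM in controls and with OGP46. That model called 393 genes higher and 87 lower in NB4 cells, of 12309 tested. ERG was under the minimum mean of 0.1 FPKM in NB4 cells alone and entered the model through its Kasumi-1 level. The part of the trace of Kasumi-1 genes described below in its NB4 values was not tested. KLF4, a myeloid zinc finger factor that BAALC holds outside the nucleus, was at 0.0109 FPKM in the Kasumi-1 controls and 3.13 ± 0.949 FPKM in the NB4 controls. MECOM was listed at 0 in all samples.

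ROBO1 is a receptor for the SLIT guidance proteins. It lies at chr3:78597239-79767998 on the minus strand (GRCh38.p14) and spans 1170760 bases. Its RefSeq table entries give a pair of starts, at which the 250 bases upstream are shown because ROBO1 was the other gene whose groups did not overlap in Kasumi-1 cells; the windows are chr3:79767999-79768248 and chr3:79019460-79019709, and neither held a motif searched for.

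ROBO1 upstream start: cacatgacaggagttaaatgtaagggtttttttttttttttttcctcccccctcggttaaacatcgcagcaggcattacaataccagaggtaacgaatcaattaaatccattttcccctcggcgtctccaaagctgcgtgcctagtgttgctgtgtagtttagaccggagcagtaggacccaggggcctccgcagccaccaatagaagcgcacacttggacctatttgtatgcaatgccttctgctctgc
ROBO1 downstream start: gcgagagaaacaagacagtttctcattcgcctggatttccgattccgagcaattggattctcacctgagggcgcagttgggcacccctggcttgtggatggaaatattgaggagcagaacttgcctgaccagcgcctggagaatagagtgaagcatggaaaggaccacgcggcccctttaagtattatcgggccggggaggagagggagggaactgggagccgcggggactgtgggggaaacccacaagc

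These windows held 9 and 12 CpG and 48.0% and 56.8% GC, and that GC was above that of 28.7% and 47.2% of promoters, lower than for TRH and POU4F1.

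ROBO1 was at 3.84, 3.59 and 3.74 FPKM in the Kasumi-1 controls. With OGP46 it was at 4.46, 4.50 and 4.90 FPKM. All OGP46 samples lay above all controls, as they did for 17.4% of genes tested. The means were 3.72 ± 0.126 and 4.62 ± 0.242 FPKM (SD, n = 3 each), and each OGP46 sample held 116.3%, 125.5% and 131.2% of its control. The log2 fold change was 0.31 (SE 0.08, 95% interval 0.12 to 0.49). It did not pass over all genes (unadjusted p 0.00403, adjusted p 0.14 in limma) and was under the size threshold of 0.58, while 15.6% of genes tested had an unadjusted p below 0.05. ROBO1 was the only one of POU4F1, BAALC and ROBO1 with an unadjusted p below 0.05, and none of the 3 was called.

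**Figure D2:**
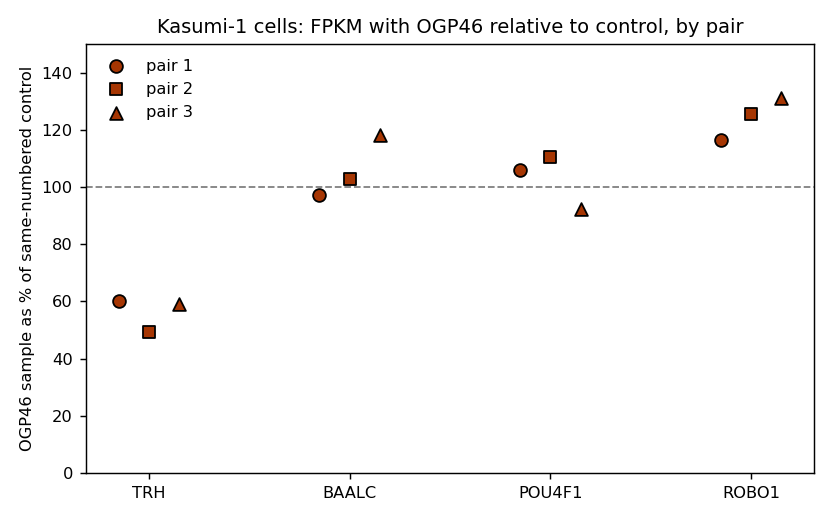
FPKM of each Kasumi-1 sample with OGP46 as a percent of the control with the same number (vertical axis, linear from 0) for TRH, BAALC, POU4F1 and ROBO1; symbols are pairs 1 to 3 and the dashed line is 100%. TRH lay between 49.3% and 60.2%, ROBO1 between 116.3% and 131.2%, and BAALC and POU4F1 had pairs on both sides of the line.

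The ligands of ROBO1 were low. SLIT1 was at 0.18 ± 0.0665 FPKM and SLIT2 at 0.0753 ± 0.0263 FPKM in the Kasumi-1 controls, and SLIT3 was listed at 0 in all samples. Of the other receptors, ROBO2 and ROBO4 were listed at 0 in all samples and ROBO3 was at 0.0052 FPKM in those controls. Among genes that act below the receptor, ENAH, SRGAP1 and SRGAP3 were at 0.013, 0.0177 and 0.0253 FPKM in the Kasumi-1 controls, and others were higher. USP33, a deubiquitinase that binds ROBO1, was at 12.9 ± 0.15 and 14.2 ± 1.02 FPKM (adjusted p 0.378 in limma), NCK1 at 6.32 ± 0.218 and 7.40 ± 0.588 FPKM (adjusted p 0.23) and SRGAP2, a GTPase activating protein, at 5.58 ± 0.0722 and 6.02 ± 0.335 FPKM (adjusted p 0.507) in controls and with OGP46. None of the 6 tested in Kasumi-1 cells and none of the 5 tested in NB4 cells was called by limma. An unadjusted p below 0.05 was reached by 1 and 4, beside 15.6% and 29.1% of all genes. The medians were −0.01 and 0.30, beside 0.05 and 0.18 over all genes.

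CAV1, the coat protein of caveolae, lies at chr7:116525009-116561185 on the plus strand (GRCh38.p14). It was at 0 in all samples, as were 3985 of the genes in the files. A gene listed at 0 in files of FPKM may be unexpressed or not estimated, and these cannot be told apart here. RefSeq gives CAV1 3 starts, and the window of the third, chr7:116526112-116526361, is shown since it was the only one of the 7 windows of these genes with a RUNX motif (TGTGGT in capitals, at −55 to −50). Over all promoters 11% held those letters and 16.3% held either form of the motif that was searched for.

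CAV1 promoter at the third start: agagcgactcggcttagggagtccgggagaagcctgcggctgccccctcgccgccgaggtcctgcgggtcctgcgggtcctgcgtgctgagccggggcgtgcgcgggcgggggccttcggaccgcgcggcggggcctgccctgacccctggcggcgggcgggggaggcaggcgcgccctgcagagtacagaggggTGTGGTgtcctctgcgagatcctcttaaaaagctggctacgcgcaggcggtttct

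The partners of CAV1 in caveolae were not all at 0. CAV2, which forms its complex with CAV1, was listed at 0 in all groups but the Kasumi-1 controls, at 0.0065 FPKM, and CAV3 and CAVIN3 were listed at 0 in all samples. CAVIN1, the coat adaptor also known as PTRF, was at 11.8 ± 2.31 FPKM in the Kasumi-1 controls and 14.5 ± 2.80 FPKM with OGP46 (SD, n = 3 each; log2 fold change 0.29, adjusted p 0.412 in limma), against 0.0654 FPKM in the NB4 controls. FLOT1, a scaffold protein of flotillin microdomains and not of caveolae, rose in NB4 cells from 13.4 ± 1.10 to 22.6 ± 0.537 FPKM (log2 fold change 0.75, adjusted p 0.0226) and was at 4.90 and 4.73 FPKM in Kasumi-1 cells (adjusted p 0.857). Of the list of 10, 0 of 7 tested in Kasumi-1 cells and 1 of 3 tested in NB4 cells were called by limma. Over all genes 1.45% were called higher in NB4 cells. An unadjusted p below 0.05 was reached by 2 and 3, beside 15.6% and 29.1% of all genes. The medians were 0.15 and 0.33, beside 0.05 and 0.18 over all genes.

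In the Kasumi-1 controls the 5 genes stood in the order TRH, BAALC, POU4F1, ROBO1 and CAV1 by FPKM, a scale per exon length. No neighbours in that order overlapped. With OGP46 the order and the absence of overlap were as before. In the controls, 4 of the 5 genes were higher in Kasumi-1 cells than in NB4 cells with no overlap, as were 43.1% of the 12302 genes compared, and over 10-fold on the log2(FPKM + 0.1) scale, as were 3.43%. POU4F1 stood at the edge of that size and was under it with TPM scaling (log2 difference 3.14), median centring (3.19) and without NB4 control sample 1 (3.06), Kasumi-1 control sample 2 (3.31) or Kasumi-1 control sample 3 (3.31), which leaves 3 genes over it. The log2 differences were 7.998 for TRH (3rd of all genes), 6.29 for BAALC (32nd), 4.99 for ROBO1 (145th) and 3.33 for POU4F1 (422nd). These are the levels by which such genes are known, and no test is given.

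**Figure D3:**
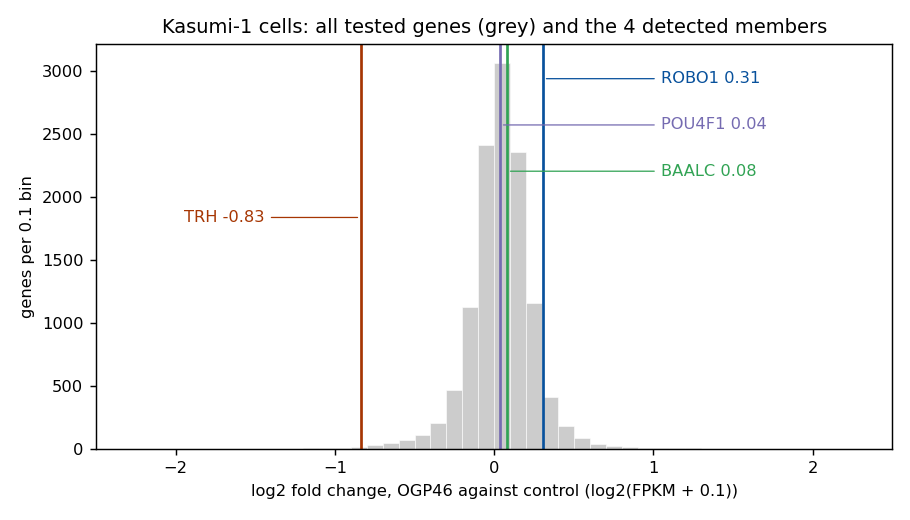
Log2 fold changes of OGP46 against control in Kasumi-1 cells (horizontal axis, log2(FPKM + 0.1)) for the 11835 genes tested, as the number of genes in each step of 0.1 (grey), with lines at TRH, POU4F1, BAALC and ROBO1. TRH, at −0.83, was the 35th lowest, and BAALC and POU4F1 lay within the tallest bars.

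The traces of these genes in NB4 libraries went with those of other Kasumi-1 genes. Of the genes with at least 10 FPKM in each Kasumi-1 control and at most 1% of that in NB4 cells, 39 were found, KIT and CD34 among them and the members left out. Their median in NB4 control sample 3 was 1.28% of the Kasumi-1 control mean, with all 39 above 0, against 0.0742% and 0.278% in control samples 1 and 2 and between 0.0367% and 0.104% in the samples with OGP46. In control sample 3 TRH was at 0.548%, BAALC at 1.06%, ROBO1 at 1.76%, RUNX1T1 at 0.895%, KIT at 0.95% and CD34 at 1.35% of their Kasumi-1 control means. POU4F1 lay apart, at 5.44% to 11.3% in all 6 NB4 libraries. The part of this shared trace in the NB4 values of TRH, BAALC and ROBO1 was not tested.

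**Figure D4:**
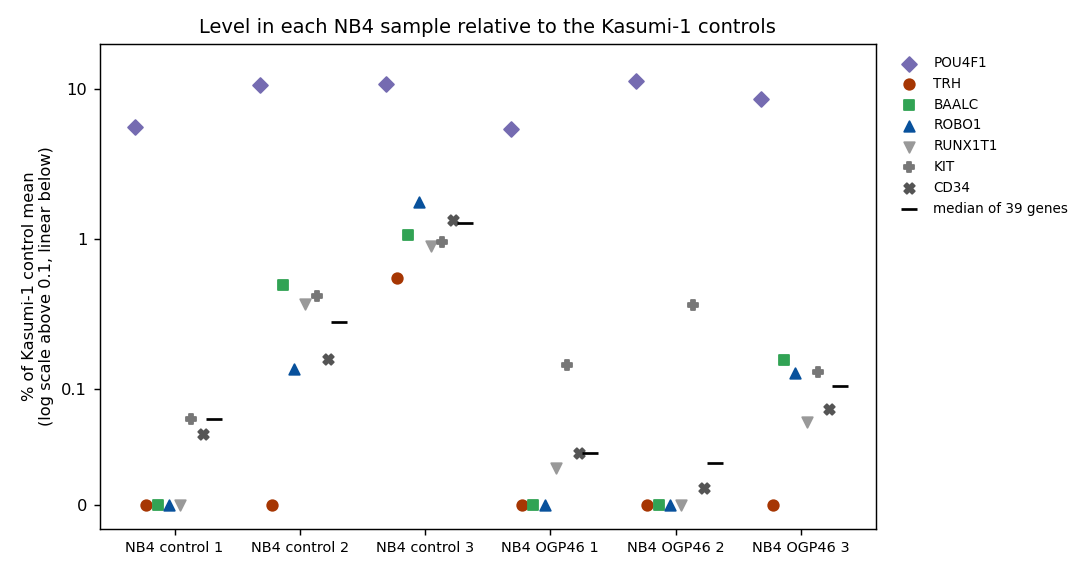
Level of POU4F1, TRH, BAALC, ROBO1, 3 Kasumi-1 markers and the median of 39 Kasumi-1 genes in each NB4 sample as a percent of the Kasumi-1 control mean (vertical axis, log scale above 0.1 and linear below). NB4 control sample 3 was the highest for TRH, BAALC and ROBO1 and for the median (1.28%), while POU4F1 was at 5.44% or more in every sample.

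Over the 12 samples the members followed each other closely in log2(FPKM + 0.1), with Pearson r between 0.984 and 0.998 for the 6 pairs of TRH, BAALC, POU4F1 and ROBO1. The points share the split of the lines, and the r is a description of it. Within the 6 Kasumi-1 samples r was −0.91 for TRH and ROBO1, −0.41 for TRH and BAALC, −0.32 for TRH and POU4F1, −0.02 for POU4F1 and ROBO1, 0.23 for POU4F1 and BAALC and 0.21 for ROBO1 and BAALC. The first of these holds the split of the treatment groups.

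Likeness over the 12 samples was taken among the 9942 genes whose mean over those samples was at least 1 FPKM. The 3 most like TRH were TP53I3, TCTEX1D1 and CKB (r 0.999, 0.998 and 0.998). Those most like BAALC were TPBG, CYP2U1 and PTK2, those most like POU4F1 were ABHD17C, RSAD1 and PLCG1, and those most like ROBO1 were NCKAP1, COL4A5 and PLXDC2, all with r of at least 0.997. CKB, the brain creatine kinase, was at 67.7 FPKM in the Kasumi-1 controls and 48.4 FPKM with OGP46. Over the 6 Kasumi-1 samples alone, the genes most like TRH were GLUL, GMDS and PIM1, with r of 0.996, 0.994 and 0.985. GLUL, glutamine synthetase, was at 41.5 and 33.8 FPKM in controls and with OGP46. GMDS, an enzyme of GDP-fucose synthesis, was at 1.32 and 1.03 FPKM, and PIM1, a serine kinase, at 5.58 and 3.06 FPKM. These r rest on 6 samples that share the treatment groups.

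Other known genes of this leukemia were taken from a list of 15. In Kasumi-1 cells 0 of the 10 tested were called in each direction and 2 had an unadjusted p below 0.05, beside 15.6% of all genes. The median log2 fold change was −0.09 beside 0.05 over all genes. RUNX1T1 was at 8.52 ± 0.183 and 8.68 ± 0.848 FPKM in controls and with OGP46 (SD, n = 3 each; adjusted p 0.918 in limma). KIT was at 128.4 ± 14.9 and 121.4 ± 11.1 FPKM (adjusted p 0.718), CD34 at 97.4 ± 3.61 and 100.1 ± 8.23 FPKM (adjusted p 0.837) and PAX5, a B-cell factor that this leukemia often expresses, at 1.16 ± 0.122 and 1.07 ± 0.119 FPKM (adjusted p 0.755). IL5RA and CACNA2D2 were under 0.01 FPKM in every group and were not tested. NCAM1 (CD56) was at 2.23 ± 0.218 FPKM in the NB4 controls and 0.0111 FPKM in the Kasumi-1 controls, and UGCG and CCNA1 were likewise lower in the Kasumi-1 controls. By line, 10 of the 15 genes reached the minimum mean of 0.1 FPKM over the controls that all genes compared had to reach. Of these 10, 7 were higher in the Kasumi-1 controls without overlap and those 3 were lower. Over all genes compared, 43.1% were higher and 34.6% were lower. The list holds genes known from this leukemia, and the difference in share was not tested. In NB4 cells 0 of the 8 tested were called by limma and 1 had an unadjusted p below 0.05, beside 29.1% of all genes. The median in NB4 cells was −0.0033 beside 0.18 over all genes. CD34 was at 0.509 ± 0.698 and 0.0463 ± 0.0328 FPKM there (adjusted p 0.22) and was called lower with the sample number as a block (adjusted p 0.0361), a comparison in which control sample 3 alone held 1.31 FPKM.

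Genes known to be held down by AML1-ETO were taken from a list of 8. Of these, 5 were lower in the Kasumi-1 controls than in the NB4 controls without overlap, as were 34.6% of all genes compared, and TGFBR2 was higher. CEBPA, the granulocytic C/EBP factor, was at 8.35 ± 1.47 FPKM in the Kasumi-1 controls and 7.04 ± 0.929 FPKM with OGP46 (adjusted p 0.426 in limma), against 78.6 ± 4.99 FPKM in the NB4 controls. SPI1 (PU.1), the master factor of myeloid cells, was at 30.7 ± 1.89 and 30.1 ± 1.56 FPKM in Kasumi-1 cells (adjusted p 0.889). LAT2, an adaptor of Fc receptors, was at 0.331 and RASSF2, a tumor suppressor with a Ras-association domain, at 1.37 FPKM in the Kasumi-1 controls, against 55.1 and 47.6 FPKM in the NB4 controls. In Kasumi-1 cells 0 of 8 were called by limma and 2 had an unadjusted p below 0.05, beside 15.6% of all genes. The median in Kasumi-1 cells was −0.06 beside 0.05 over all genes. NFE2, an erythroid and megakaryocyte factor, was at 0.387 ± 0.128 and 0.152 ± 0.0321 FPKM there (adjusted p 0.14) and was called lower with the block (adjusted p 0.0487). With the block 41 of the 11835 genes tested in Kasumi-1 cells were called lower. In NB4 cells TGFBR2, the TGF-β receptor, rose from 4.60 ± 0.618 to 7.11 ± 0.496 FPKM (log2 fold change 0.62, adjusted p 0.0431). Over all genes 1.45% were called higher in that line. The median of the 8 in NB4 cells was 0.35 beside 0.18 over all genes. CSF1R, the M-CSF receptor, at 1.88 and 3.05 FPKM (adjusted p 0.254), passed with the block (adjusted p 0.00921).

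Over the 7 lists together, 44 of 76 genes were tested in Kasumi-1 cells and 0 were called in each direction by limma, with 10 at an unadjusted p below 0.05. Over all genes 0.0169% were called in each direction there and 15.6% had such a p. In NB4 cells 3 of 38 tested, QPCT, TGFBR2 and FLOT1, were called higher and 0 lower, which is 7.89% beside 1.45% of all genes. The median of the 38 was 0.29 beside 0.18 over all genes. With the block 5 were called higher and 1 lower, beside 5.06% and 1.15% of all genes. None of the 3 was called after median centring, TPM scaling, quantile normalization, without the trend or without the filter on low values, nor when any 1 NB4 sample other than OGP46 sample 2 was left out, and with a pseudocount of 1 TGFBR2 was not called.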

How the data were processed

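Total RNA was extracted from 12 samples of 2 cell lines, and libraries were made with a stranded mRNA kit. The files the authors deposited hold FPKM by gene symbol, with a file for each sample. The submitters' processing notes name Trimmomatic, HISAT2, Cufflinks and HTSeq and the build hg38; their versions, roles and the strand setting are not given in the sources used here. A figure legend of the study gives a longer incubation than the labels, whose 48 h is used here. Of the deposited values, 632 lay above 0 and below 1e-04. Depth is unknown, and no counting interval is given. The 27 symbols turned into dates were left out.

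The 5 genes, the gene lists and the tests were chosen with earlier results of these data known. Samples were grouped as labelled. Log2(FPKM + 0.1) was compared within each line by limma 3.58.1 in R 4.3.3, for genes whose mean was 0.1 FPKM or more, with a mean-variance trend and Benjamini-Hochberg adjustment over all genes; the difference between lines was an interaction term over all samples. A fold change on this scale understates that of low genes. The script was tested on simulated data. The model had no replicate block. Same-numbered samples deviated together from their group means. The r over all genes was 0.355, 0.622 and 0.197 in NB4 cells and 0.218, 0.157 and 0.395 in Kasumi-1 cells. Among differently numbered NB4 samples, control 1 with OGP46 3 was at 0.224 and control 3 with OGP46 1 at 0.175. Over all genes NB4 samples 1 and 3 were thus not clearly told apart. At a minimum mean of 5 FPKM these r were 0.289 and 0.224, beside 0.662, 0.85 and 0.439 for the NB4 samples numbered 1, 2 and 3. In Kasumi-1 cells the same-numbered samples were then at 0.416, 0.433 and 0.621, and no differently numbered samples were above 0.081. At that minimum, same-numbered samples were thus more alike than any others of their line, a pairing that the main model left out. The numbers come from the sample titles. The blocked fit, which takes them as pairs, is given beside a result where it changed the call. Genes named were the 5 members, list genes with at least 1 FPKM in a group or past a threshold, and the 3 genes most like each member by Pearson r; list genes at lower levels were named after their values were seen, and 1 list gene is not reported here. Promoter windows and positions are from RefSeq (GRCh38.p14), with windows for 4 of the 5 genes, and antisense overlap from GENCODE release 29. Alternatives were other pseudocounts (0.01 and 1), filters, TPM scaling, median centring, quantile normalization, no trend, the replicate block, leaving out each sample, and a joint model of all 12.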

Additional observations from a re-analysis of the deposited data

Results flagged for a closer look

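Among the members and the list genes, TGFBR2 and NCK2 were picked out because every sample with OGP46 was above every control in NB4 cells and below every control in Kasumi-1 cells, as in 50 of the 10904 genes whose mean reached 0.1 FPKM in both lines (0.459%). They were chosen for this pattern, so the p-values of the difference are not independent of the choice. TGFBR2, a TGF-β receptor, was at 4.60 and 7.11 FPKM in NB4 cells and 16.5 and 15.4 FPKM in Kasumi-1 cells in controls and with OGP46, and its log2 fold change in NB4 minus that in Kasumi-1 was 0.72 (adjusted p 0.0976, interaction term in limma; 0.013 with the replicate block). NCK2, an adaptor that binds ROBO1, was at 8.80 and 11.1 FPKM in NB4 cells and 11.9 and 10.9 FPKM in Kasumi-1 cells, and the same difference was 0.46 (adjusted p 0.108; 0.057 with the replicate block). Neither difference passed over all genes without the block. With it, the difference between lines was called for 223 genes with a positive value and 14 with a negative one, of 12309 tested. Besides TGFBR2, the list genes called were FLOT1 (difference 0.81, adjusted p 0.0209), QPCT (1.29, 0.0311) and NFE2 (0.72, 0.0435), by the blocked interaction term in limma. The Kasumi-1 changes of both genes on their own did not pass (adjusted p 0.50 for TGFBR2 and 0.379 for NCK2, limma).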

How the results depend on the processing

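The count of POU4F1, BAALC and ROBO1 called in Kasumi-1 cells was 0 under all 16 alternatives, and that of POU4F1 in NB4 cells was 0 under all 15. That of the difference between lines was 0 under all 21. No gene at all was called in some of these settings, such as no trend in Kasumi-1 cells or TPM scaling in NB4 cells. The same held in most settings for the difference between lines. A 0 for the members in such a setting was fixed in advance. The count of genes higher in Kasumi-1 controls without overlap was 4 under all 8. Of those 8, 6 left out a sample, which cannot create an overlap. The log2 difference of TRH ranged from −0.90 to −0.76 over its 16 alternatives. ROBO1 kept its direction, at 0.24 to 0.33, with adjusted p from 0.06 (replicate block, log2 fold change 0.31) to 0.599. POU4F1 in Kasumi-1 cells turned negative with median centring (−0.0316) and quantile normalization (−0.032). Leaving out 1 sample at a time, it ranged from −0.0346 to 0.0912, BAALC from −0.0302 to 0.1455, POU4F1 in NB4 cells from −0.3555 to 0.1511 and its difference between lines from −0.3908 to 0.1158. Their directions therefore depend on single samples. The replicate block changed no call of the 5 genes. POU4F1 could not be tested in NB4 cells at a minimum mean of 1 FPKM. Precision rests on 3 samples a group, and depth is unknown.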
